A study of Mus musculus with 12 samples.

Results

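The genes described here encode 4 cytokines of the interleukin-6 family (Il6, Lif, Il11 and Osm), the related inflammatory cytokine gene Il1b, the receptor genes Il6ra and Il6st, the feedback inhibitor gene Socs3, and the prostaglandin enzyme genes Ptgs2 and Ptges. These 10 genes, of 18193 named on the array, were read by 20 of its 45101 probe sets. They were taken as a set because anti-PD-1 went with higher Il6 and Ptgs2 in parental tumours. Every value from that comparison is therefore given as a description, with no test.

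Expression was measured in whole tumours of 344SQ, a mouse lung adenocarcinoma line, grown under the skin of the right flank of female 129sv/ev mice. Tumours of the parental line and of a line resistant to anti-PD-1 each received either control IgG or anti-PD-1, which blocks a receptor that restrains T cells. The dose was 10 mg/kg of antibody on day 4 and again on day 7, and tumours were taken on day 11. The 4 groups (parental with IgG, parental with anti-PD-1, resistant with IgG, resistant with anti-PD-1) had 5 mice each by the labels and 3 arrays each. Which mice lie behind an array is not stated, so a p-value here speaks only of the scatter among arrays, part of which may be technical. Each arm rests on 1 cell line, and the origin of the resistant line is not described in the labels. Values are log2 expression levels, so a difference of 1 is a change of 2-fold.

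Cytokines of the interleukin-6 family signal through a shared receptor chain, gp130, the product of Il6st. Interleukin-6 first binds the receptor encoded by Il6ra, while leukaemia inhibitory factor (Lif), interleukin-11 (Il11) and oncostatin M (Osm) use receptors of their own beside gp130. The receptors activate JAK kinases and the transcription factor STAT3, and STAT3 induces Socs3, which shuts the receptor off again. Ptgs2 encodes cyclooxygenase-2, the inducible enzyme that turns arachidonic acid into prostaglandin H2, and Ptges encodes a synthase that makes prostaglandin E2 from it. Interleukin-1 beta (Il1b) is a known inducer of Il6, Ptgs2 and Ptges in stromal and epithelial cells.

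The 250 bases before the start of Il6, Ptgs2 and Lif are shown because these genes had high levels in the same 3 parental tumours given anti-PD-1, and Lif also had the clearest difference between the lines. They are RefSeq sequences of build GRCm38.p6 on the plus strand, at chr5:30012864-30013113, chr1:150099781-150100030 and chr11:4257318-4257567. Capitals mark matches, on either strand, to any of 7 motifs: the AP-1 motif (TGANTCA), the half-site of the cyclic AMP response element, CRE (TGACG), NF-kB (GGG and CC with any 5 bases between them), C/EBP (TTNNGNAA), the E-box (CACGTG), STAT (TTCNNNGAA) and the motif of the TATA box (TATAAA).
Il6: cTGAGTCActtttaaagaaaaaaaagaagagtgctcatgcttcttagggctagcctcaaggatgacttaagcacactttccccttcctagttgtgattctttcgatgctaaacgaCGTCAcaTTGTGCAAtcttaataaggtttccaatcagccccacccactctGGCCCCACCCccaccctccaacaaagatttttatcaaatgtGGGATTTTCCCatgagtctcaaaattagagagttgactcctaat
Ptgs2: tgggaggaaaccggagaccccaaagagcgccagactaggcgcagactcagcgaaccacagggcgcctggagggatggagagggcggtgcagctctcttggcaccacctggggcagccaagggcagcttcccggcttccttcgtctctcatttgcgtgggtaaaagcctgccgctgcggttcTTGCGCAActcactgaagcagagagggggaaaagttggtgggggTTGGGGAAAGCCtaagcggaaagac
Lif: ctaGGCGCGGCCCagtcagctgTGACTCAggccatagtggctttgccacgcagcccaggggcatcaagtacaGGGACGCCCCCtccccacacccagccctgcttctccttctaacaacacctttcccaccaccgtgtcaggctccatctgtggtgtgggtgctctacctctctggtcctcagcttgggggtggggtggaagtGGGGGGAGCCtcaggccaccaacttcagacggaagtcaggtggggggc

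The Il6 window held an AP-1 match at positions -249 to -243 from the start, a CRE half-site at -135 to -131 close to a C/EBP match at -128 to -121, and NF-kB matches on both strands that overlapped at -44 to -34. A further NF-kB match lay at -85 to -76. In the Ptgs2 window a C/EBP match lay at -69 to -62, and another at -25 to -18 overlapped an NF-kB match at -23 to -14. The Lif window held an AP-1 match at -228 to -222 and NF-kB matches at -247 to -238, -178 to -168 (overlapping on both strands) and -48 to -39. Of all 32851 RefSeq windows of this length, 6.75% held the AP-1 motif, 17.8% the CRE half-site, 45.8% the NF-kB motif, 36.8% the C/EBP motif, 6.02% the E-box, 12.4% the TATA motif and 7.02% the STAT motif. Among the other genes, Socs3 had the only STAT match of the set, at -154 to -146. Such matches describe the letters of these windows and not sites in use. Windows were found for 9 of the 10 genes, the exception being Osm.

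Tissue content differed between arrays as well as groups. On the first 2 principal components (48.5% and 21.6% of the variance), anti-PD-1 replicate 3 and IgG replicate 1 of the parental tumours lay farthest from the centre. Results of the 10 genes that rest on these arrays are therefore given with and without them. Markers of tumour epithelium, such as Epcam and Krt8, were present on every array, with list means of 9.25 to 9.92 in parental and 9.03 to 9.13 in resistant tumours. The skeletal muscle list ran from 6.56 to 10.19 in parental tumours given IgG, 9.44 to 11.07 with anti-PD-1, 8.88 to 9.76 in resistant tumours given IgG and 6.22 to 9.09 with anti-PD-1. In such whole tumours, fewer cells of a type and less RNA per cell cannot be told apart. The plot of genes and marker lists by array shows these values beside the 10 genes.

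**Figure D1:**
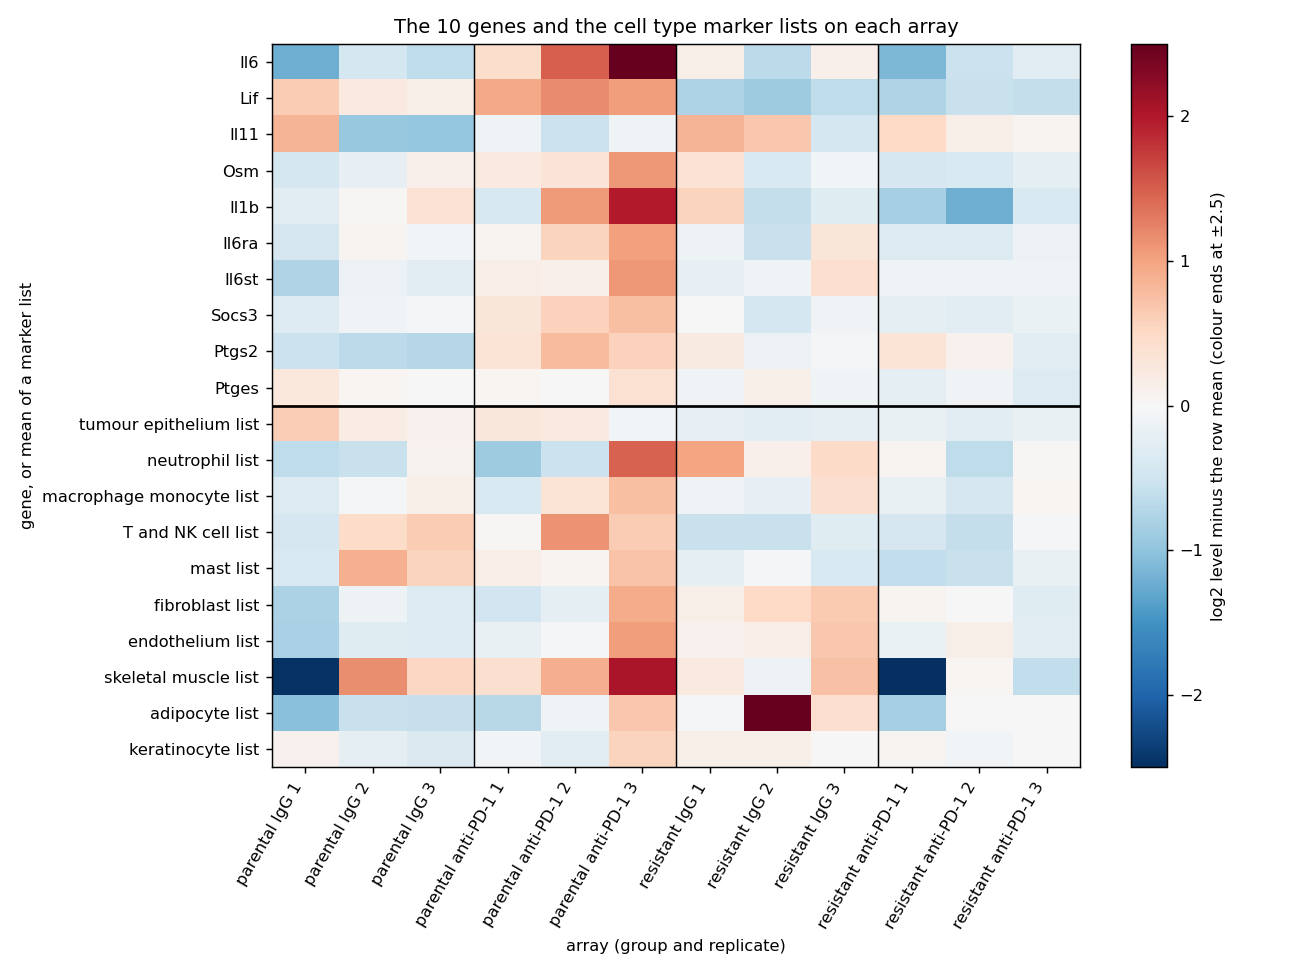
Log2 level of the 10 genes (above the line) and mean log2 level of 10 cell type marker lists (below it) on each of 12 arrays, as the difference from the row's mean over all arrays. Il6 is highest in the 3 parental tumours given anti-PD-1, and parental anti-PD-1 replicate 3 is also the highest array for neutrophil, macrophage, fibroblast, endothelial and skeletal muscle markers.

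In parental tumours, the anti-PD-1 arrays lay above every IgG array for Il6, Ptgs2, Lif, Osm, Il6ra, Il6st and Socs3, and the groups overlapped for Il1b, Il11 and Ptges. Il6 read 4.39, 5.18 and 4.98 under IgG and 6.06, 7.11 and 8.26 under anti-PD-1. These groups did not overlap, and the treated arrays were spread far more widely than the controls (SD 1.10 against 0.411, n = 3 each). The difference was 2.29 (SE 0.47), the largest of the 10 genes. It was 1.505 without parental IgG replicate 1 and parental anti-PD-1 replicate 3, which hold the lowest and the highest Il6 value of the study. Ptgs2 read 9.12, 9.01 and 8.95 under IgG against 9.99, 10.44 and 10.23, a difference of 1.19 (SE 0.16), with little spread within either group. A second, dimmer Ptgs2 probe set gave 0.98 (SE 0.23). Leaving out arrays moved the Ptgs2 difference only between 1.08 and 1.31.

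Among the other ligands, Lif read 7.07, 6.67 and 6.57 under IgG and 7.37, 7.60 and 7.47 under anti-PD-1, a difference of 0.71 (SE 0.13). The groups stood apart, with the treated arrays close together. Its other probe set lay between 3.54 and 4.02 on all 12 arrays, near the limit of 3.32 below which values were treated as dim, and differed by -0.01. Osm, a cytokine made mainly by myeloid and T cells, read 5.30, 5.53 and 5.86 against 5.98, 6.05 and 6.81, a difference of 0.72 (SE 0.24). Its groups were separated by a narrow margin, and the difference was 0.32 without the 2 arrays that stood apart. Il1b read 7.45, 7.75 and 8.08 against 7.32, 8.78 and 9.71, a difference of 0.84 (SE 0.51). Here the groups overlapped, since anti-PD-1 replicate 1 was below every IgG array, and the difference was 0.135 without the 2 arrays. Il11 read 6.94, 5.15 and 5.13 against 5.99, 5.56 and 5.99, a difference of 0.11 (SE 0.46). Its one high IgG value came from replicate 1, and without that array the difference was 0.71.

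The receptor genes and Socs3 were also higher. Il6ra read 5.82, 6.30 and 6.17 under IgG and 6.31, 6.79 and 7.27 under anti-PD-1, a difference of 0.69 (SE 0.25) between groups that almost touched. Il6st read 7.65, 8.25 and 8.14 against 8.56, 8.53 and 9.48, a difference of 0.84 (SE 0.26). Without the 2 arrays that stood apart these differences were 0.315 and 0.35. Socs3 read 9.64, 9.89 and 9.92 against 10.28, 10.55 and 10.73, a difference of 0.70 (SE 0.14) that was 0.51 without them. Ptges read 8.02, 7.80 and 7.75 against 7.80, 7.77 and 8.15, a difference of 0.05 (SE 0.13), with groups that overlapped throughout. The other probe sets differed by 0.23 to 0.52 for Il6st, 0.64 and 0.67 for Socs3, and 0.03 and 0.17 for Ptges. For Il6ra the second probe set, at 5.39 to 5.78 on all arrays, differed by 0.01, so the Il6ra difference rests on 1 of its 2 probe sets.

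Counted over the set, all 10 differences were positive, as were 48.2% of the 15493 genes tested, with a median of 0.71 beside -0.0067 over all genes, and the median was 0.43 without the 2 arrays. The groups did not overlap, with anti-PD-1 higher, for 7 of the 10 genes and for 9.12% of all genes. Since Il6 and Ptgs2 were chosen on this comparison, nothing is read from these counts. Most marker lists also had higher means. The groups did not overlap for the endothelial list, at 5.22 to 5.72 under IgG and 5.85 to 7.07 under anti-PD-1. Of its 7 markers, 5 separated the groups with anti-PD-1 higher, and its part in the result was not tested. The groups overlapped for every other list, and for neutrophils and macrophages anti-PD-1 replicate 1 was below every IgG array. The neutrophil list read 5.24, 5.33 and 5.97 under IgG and 5.00, 5.34 and 7.36 under anti-PD-1, and the macrophage list 8.23, 8.53 and 8.72 against 8.20, 8.91 and 9.33. Of the markers tested, 6 of 7 for neutrophils and 8 of 9 for macrophages had positive differences, and their part in the result was not tested. Differences were also positive for 10 of 10 T and NK cell, 10 of 10 skeletal muscle, 9 of 10 fibroblast, 7 of 7 endothelial, 4 of 4 adipocyte and 5 of 6 keratinocyte markers, and for 3 of 9 epithelial and 3 of 7 mast cell markers. The skeletal muscle list had the largest median, 1.32. On the 3 treated arrays Il6 had the same order as 6 of the 10 lists (neutrophil, macrophage, fibroblast, endothelial, skeletal muscle and adipocyte).

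**Figure D2:**
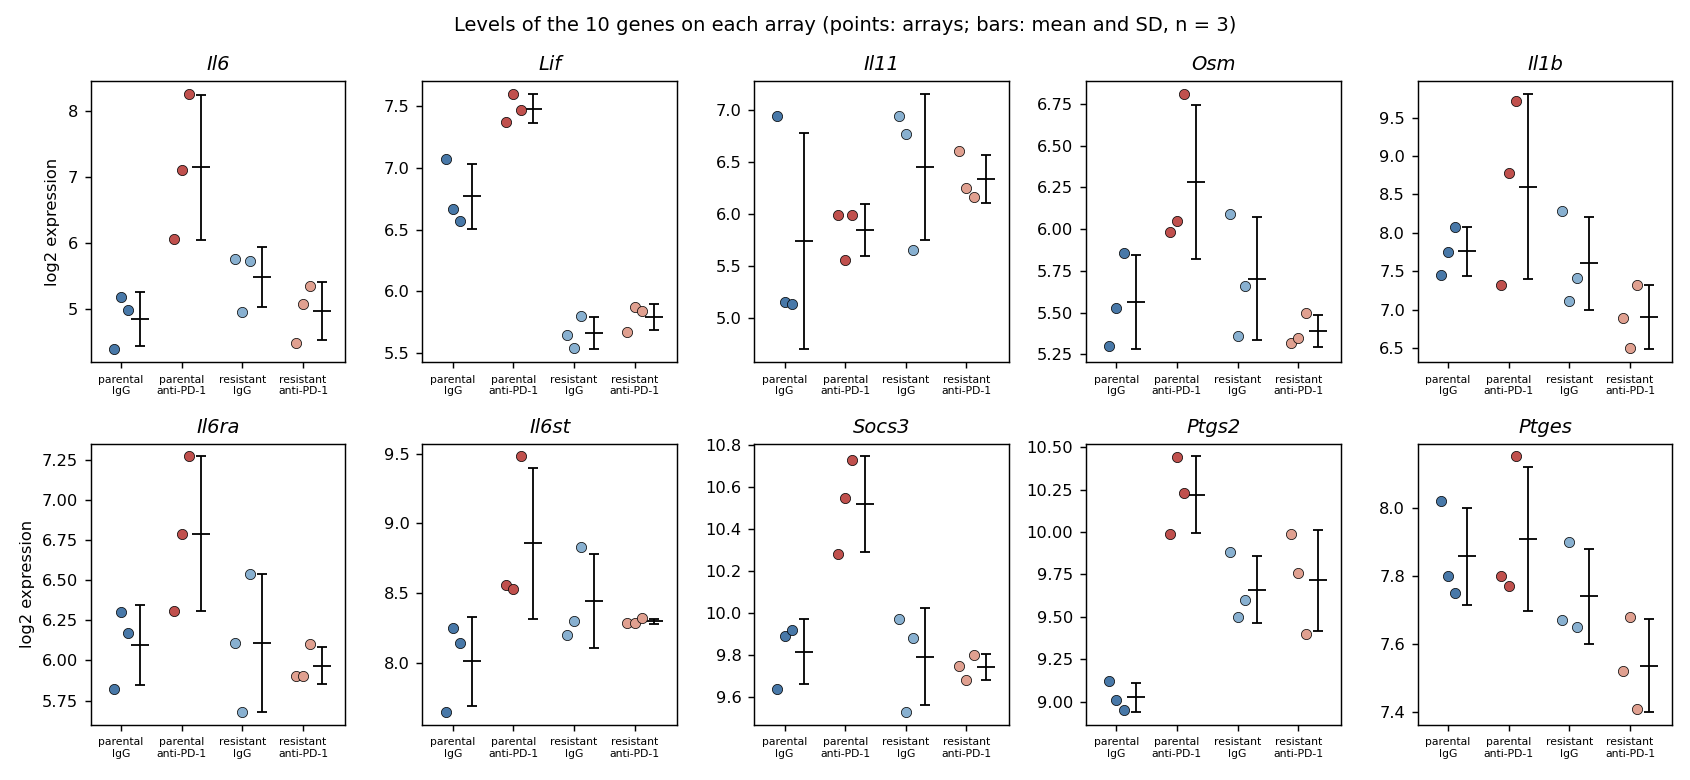
Log2 expression of each gene (y axis, a scale of its own per gene) on the 3 arrays of each group, with the mean and SD. Parental tumours given anti-PD-1 are the highest group for 9 of the 10 genes by their mean, Il11 is highest in resistant tumours, and Lif is lower on all 6 resistant arrays than on any parental array.

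In resistant tumours no gene of the set passed the test for a change with anti-PD-1. Il6 read 5.76, 4.96 and 5.73 under IgG and 4.49, 5.08 and 5.34 under anti-PD-1, with overlapping groups. The difference was -0.51 (SE 0.47, adjusted p = 0.896 by limma with Benjamini-Hochberg adjustment), and its 95% interval ran from -1.54 to 0.52. Ptgs2 read 9.88, 9.50 and 9.60 against 9.99, 9.76 and 9.40, a difference of 0.057 (interval -0.30 to 0.41, adjusted p = 0.965). All 6 of these Ptgs2 values lay above the 3 parental IgG arrays, and on this brighter probe set none exceeded the lowest parental anti-PD-1 array. The dimmer probe set read 7.47, 7.22 and 7.25 under IgG and 7.31, 7.30 and 6.89 under anti-PD-1. All of those exceeded the lowest of its parental anti-PD-1 values, which were 6.72, 7.01 and 7.65.

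Lif was low and tightly grouped, at 5.65, 5.54 and 5.80 under IgG and 5.67, 5.87 and 5.84 under anti-PD-1, with a difference of 0.13 (interval -0.16 to 0.42). Socs3 read 9.97, 9.53 and 9.88 against 9.75, 9.68 and 9.80, a difference of -0.05 (interval -0.36 to 0.26). Both pairs of groups overlapped. Il1b read 8.28, 7.12 and 7.42 against 6.89, 6.50 and 7.33, a difference of -0.70 whose interval, -1.82 to 0.42, was the widest of the set. Osm read 6.09, 5.36 and 5.66 against 5.32, 5.35 and 5.50, a difference of -0.31 (interval -0.84 to 0.21). The highest IgG value of both genes came from replicate 1.

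For the receptors, Il6ra read 6.11, 5.68 and 6.54 under IgG and 5.90, 5.90 and 6.10 under anti-PD-1, and Il6st read 8.20, 8.30 and 8.83 against 8.29, 8.29 and 8.32. Both differences were -0.14, with intervals of -0.70 to 0.41 for Il6ra and -0.71 to 0.42 for Il6st. Il11 read 6.94, 6.77 and 5.65 against 6.60, 6.25 and 6.16, a difference of -0.12 (interval -1.12 to 0.89). Ptges read 7.67, 7.90 and 7.65 against 7.52, 7.68 and 7.41, a difference of -0.20 (interval -0.48 to 0.075). All 4 genes overlapped between the antibodies.

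By limma, 0 of the 10 genes and 0 of their 20 probe sets were called at an adjusted p under 0.05, beside 0% of all genes tested (0 of 15493). At an unadjusted p under 0.05 the count was 0 of 10, beside 738 genes (4.76%). The antibody groups were separate for 0 of the 10 genes and for 14.2% of all genes. Differences were positive for 2 of the 10 genes and negative for 8, beside 58.4% positive over all genes, with a median of -0.14 beside 0.03 over all genes. The intervals for Il6, Il1b and Il11 are wide enough to hold changes of more than 2-fold downward. Differences of neutrophil, macrophage, fibroblast and endothelial markers were negative for 7 of 7, 9 of 9, 10 of 10 and 7 of 7 genes, those of skeletal muscle and adipocyte markers for 9 of 10 and 4 of 4, and those of T and NK cell markers for 5 of 10, with 0 called, and their part was not tested.

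**Figure D3:**
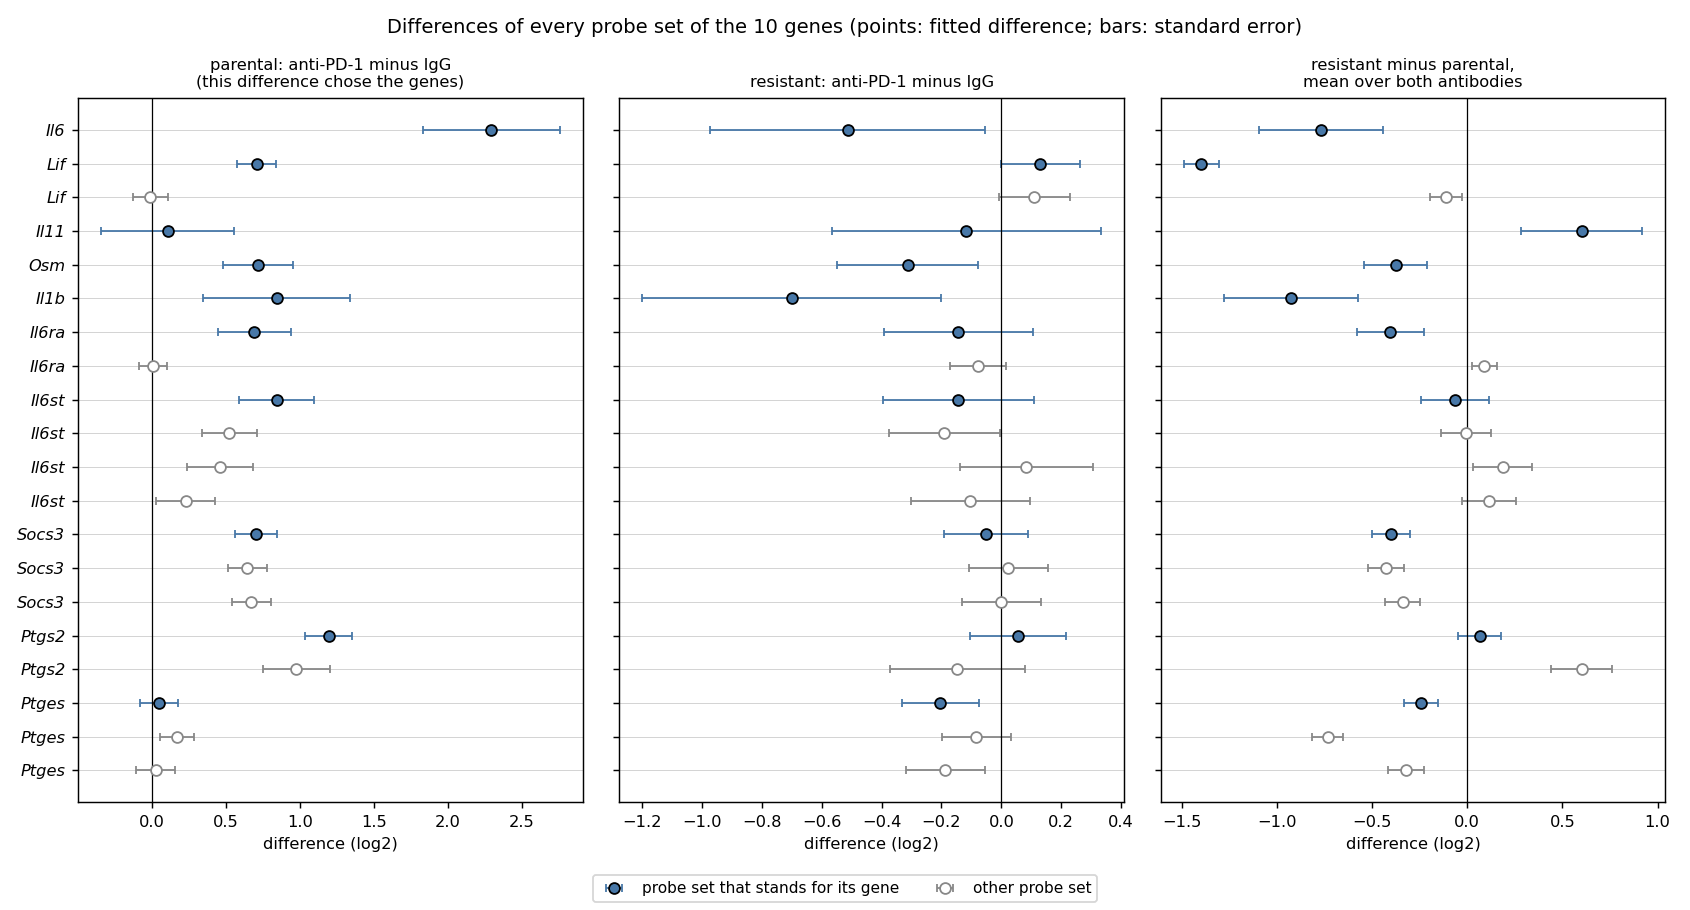
Difference in log2 level (x axis) with its standard error for each of the 20 probe sets, for anti-PD-1 against IgG in parental and in resistant tumours and for resistant against parental tumours. In parental tumours the points for Il6 and Ptgs2 lie farthest to the right, and in resistant tumours the points lie between -0.70 and 0.13.

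Between the lines, Lif was lower in resistant tumours on every array, whichever antibody was given. The 6 parental arrays lay between 6.57 and 7.60 and the 6 resistant arrays between 5.54 and 5.87. Lif was the 1 gene of the set whose lines were separate in this way, which 6.65% of all genes were with resistant lower. The difference averaged over both antibodies was -1.40 (SE 0.092, adjusted p = 4.33e-06 by limma, interval -1.60 to -1.19). It was -1.11 under IgG and -1.69 under anti-PD-1. Lif was called under all 21 alternatives, and its dim second probe set differed by -0.11 (adjusted p = 0.302).

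The line average includes the parental anti-PD-1 arrays on which the genes were chosen. Where the difference under IgG was near 0 or of the opposite sign, the average is therefore given as a value with no p, and a call is not read as a difference between the lines. Socs3 is such a gene. Its average was -0.40 (SE 0.099), from -0.02 under IgG and -0.78 under anti-PD-1, and all 3 of its probe sets had averages of -0.34 to -0.43.

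Ptges averaged -0.24 (SE 0.089) through its brightest probe set, from -0.12 under IgG and -0.37 under anti-PD-1, with overlapping lines. By the same rule its call is not read as a difference between the lines. That call was kept in 9 of 21 alternatives and was lost, for instance, without parental IgG replicate 1 or without parental anti-PD-1 replicate 3. A second Ptges probe set separated the lines on every array, at 7.65 to 8.08 in parental and 6.96 to 7.30 in resistant tumours, with a difference of -0.73 (adjusted p = 5.94e-05). The third differed by -0.32 (adjusted p = 0.0184), from -0.21 under IgG and -0.43 under anti-PD-1. The 3 probe sets thus had the same sign and different sizes.

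For Ptgs2 the probe sets disagreed. The average difference was 0.065 (SE 0.11) for the brighter one and 0.60 (SE 0.16) for the dimmer one. Under IgG alone both were higher in resistant tumours, by 0.63 and 1.16, without overlap between the lines. Under anti-PD-1 the differences were -0.50 and 0.04.

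The other genes were not called on the line average. For Il6 it was -0.77, made up of 0.63 under IgG and -2.17 under anti-PD-1, so the lines were ordered oppositely under the 2 antibodies. Il1b averaged -0.93 (-0.15 and -1.70), Osm -0.38 (0.14 and -0.89) and Il6ra -0.41 (0.01 and -0.82). In each, the lower values of resistant tumours were those set against parental tumours given anti-PD-1. Il11 differed by 0.60 (adjusted p = 0.159), and by 0.90 (adjusted p = 0.00912) without parental IgG replicate 1, its one high parental array. Il6st averaged -0.06 (0.43 and -0.56), and its other 3 probe sets -0.01 to 0.18, none of them called.

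Of the 10 genes, 3 (Lif, Socs3 and Ptges) were called lower and 0 higher in resistant tumours, beside 15.0% of all genes called lower and 25.2% higher. Among the 20 probe sets 8 were called, 7 lower and 1 higher, beside 40.8% of all probe sets (17.0% lower and 23.8% higher). Differences were positive for 2 of the 10 genes and for 61.9% of all genes, with a median of -0.39 beside 0.077. Markers of T and NK cells were lower as well, with list means of 4.36 to 4.91 on resistant and 4.53 to 6.08 on parental arrays and 6 of 10 markers called lower. Mast cell markers had negative differences for 7 of 7 genes (6 called, median -0.68) and skeletal muscle markers for 10 of 10 (0 called, median -0.84). Of the epithelial markers 4 of 9 were called lower and 1 higher. Other lists went the opposite way or both ways. Differences were positive for 9 of 10 fibroblast markers (2 called higher, median 0.36), 4 of 4 adipocyte (0 called) and 5 of 7 endothelial markers (1 called higher). They were positive for 4 of 7 neutrophil, 2 of 9 macrophage and 2 of 6 keratinocyte markers, with 1 called higher on each of these lists. The distance between the 3' and 5' control probes, a sign of RNA quality, also differed. It was 0.14 to 0.38 for Gapdh in parental and -0.03 to 0.09 in resistant tumours (two-sided p = 0.00216 by an exact permutation test, which is the least that 6 arrays per line allow). The part of these in the line differences was not tested.

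Over all 12 arrays, the genes whose levels most resembled Il6 were Syk (Pearson r = 0.975), Fes (0.960), Dtx3 (0.958), Inpp5d (0.952) and Cndp2 (0.952). Syk encodes a tyrosine kinase and Inpp5d a lipid phosphatase. After each group's mean was subtracted, r was 0.953 for Syk, 0.857 for Fes, 0.854 for Dtx3, 0.942 for Inpp5d and 0.891 for Cndp2. Without the 2 arrays that stood apart these were 0.875, 0.623, 0.624, 0.918 and 0.772, so Fes and Dtx3 leaned on those arrays. Within the set, Socs3 (0.935), Il6ra (0.926), Osm (0.910), Il6st (0.848) and Il1b (0.825) followed Il6, and with group means subtracted these were 0.857, 0.892, 0.807, 0.739 and 0.862. For Ptgs2 and Lif r was 0.681 and 0.585, and 0.070 and 0.097 with group means subtracted. Within the set, the values for Lif and Il6st depended most on the 2 arrays that stood apart. Over the other 10 arrays, with group means subtracted, r with Il6 was 0.892 for Lif, 0.796 for Il6ra, 0.785 for Socs3, 0.723 for Il1b, 0.510 for Osm, 0.193 for Il6st and 0.184 for Ptgs2. The genes most like Ptgs2 were Nfkb2 (0.896), Nav2 (0.896), Slc3a2 (0.894), Slco4a1 (0.870) and Bmp2 (0.869), with 0.568, 0.337, 0.415, 0.357 and 0.518 after group means. These correlations share arrays and tissue content, and are descriptions.

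The other genes of these pathways were taken from 6 lists, on which 72 of 85 genes were tested. In parental tumours given anti-PD-1 their median difference was 0.28, with 58 positive and 13 negative, given as a description. The largest were acute phase and STAT3 target genes. Saa3, a serum amyloid A gene, went from 6.43 ± 0.94 to 9.57 ± 2.29 (SD, n = 3), a difference of 3.14 (SE 1.05). Hp, encoding haptoglobin, differed by 2.01 (SE 1.04), Steap4 by 1.31 (SE 0.52) and Serpina3n by 1.24 (SE 0.40). The groups overlapped for Saa3, Hp and Steap4 and not for Serpina3n. These differences are given over all arrays only. The lowest were Ptgr1 (-0.67), which encodes a prostaglandin reductase, Ptgds (-0.65), a prostaglandin D2 synthase gene, Il18 (-0.42) and Il1r2 (-0.31), a decoy receptor gene. In resistant tumours 0 of 72 were called by limma. An unadjusted p under 0.05 was found for 8 of 72, beside 4.76% of all genes, and this share was not tested. The 8 include the dim receptor gene Ptger3. It passed the filter only through resistant tumours given IgG, the group from which it fell, so nothing is read from this count.

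Between the lines 15 of the 72 pathway genes were called higher and 20 lower in resistant tumours. Of 11 prostaglandin enzyme and transport genes, 6 were higher (Ptgr1, Slco2a1, Ptges2, Ptgds, Hpgd and Cbr1) and 1, the thromboxane synthase gene Tbxas1, was lower. Ptgr1 differed by 0.60 (adjusted p = 0.000126), from 0.23 under IgG and 0.97 under anti-PD-1. The prostaglandin transporter gene Slco2a1 differed by 0.66 (adjusted p = 0.000443), from 0.74 under IgG and 0.59 under anti-PD-1. Both genes were called in all 21 alternatives, but Hpgd in 10, Tbxas1 in 11 and the receptor gene Ptger1 in 15 of them. Cbr1 differed by 0.11 under IgG and 0.43 under anti-PD-1, and Tbxas1 by -0.13 and -0.49, so neither call is read as a difference between the lines. Of 8 prostanoid receptor genes 3 were higher (Ptger3, Ptger1 and Ptgdr2) and 1 lower (Ptger4), but Ptger3, a prostaglandin E2 receptor gene, was dim. Its mean was 3.79 in resistant tumours given IgG, and 2.59, 2.83 and 3.14 in the other 3 groups, all below the limit of 3.32. It entered the test only through that group, so its call is not read as a difference.

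Signalling genes went both ways. Of 10 JAK-STAT genes 3 were higher, among them Jak1 (0.57, adjusted p = 0.000312) and the adaptor gene Gab1 (0.45, adjusted p = 0.0017) besides Pias3, and 5 were lower, which were Jak2, Stat3, Socs1, the kinase gene Tyk2 (-0.40, adjusted p = 0.000239) and the feedback inhibitor gene Cish (-1.01, adjusted p = 0.000105). Of 17 STAT3 targets 3 were higher (Timp1, Steap4 and Serpina3n) and 5 lower (Pim1, Cebpb, Mcl1, Bcl2l1 and Il4ra), with Timp1, a metalloproteinase inhibitor gene, at 0.64 (adjusted p = 0.00098) and the kinase gene Pim1 at -0.93 (adjusted p = 0.00021). Of 17 interleukin-1 and NF-kB genes 0 were higher and 5 lower, led by Relb, an NF-kB subunit gene (-0.56, adjusted p = 6.94e-05), the cytokine gene Il33 (-0.72, adjusted p = 0.000106) and the NF-kB inhibitor gene Tnfaip3 (-0.75, adjusted p = 0.000305), with Nfkbia and Nfkbiz. Of 9 further family ligands and receptors 0 were higher and 3 lower (Clcf1, Ebi3 and Osmr). Cebpb differed by -0.01 under IgG and -0.96 under anti-PD-1, Il4ra by -0.093 and -0.52, and Osmr by -0.087 and -1.29. Nfkbia differed by 0.073 under IgG, opposite in sign to its average. As for Socs3, these calls are not read as differences between the lines. Stat3 differed by -0.17 under IgG and -0.66 under anti-PD-1, and Mcl1 by -0.15 and -0.51. The calls of Stat3 and Mcl1 are likewise not read as differences between the lines. Serpina3n differed by 1.9 under IgG and -0.22 under anti-PD-1, so it was higher in resistant tumours under IgG only. Timp1 differed by 1.07 under IgG and 0.21 under anti-PD-1, Steap4 by 2.27 and 0.40, and Pim1 by -0.48 and -1.38. The sizes of these 3 averages thus depended on the antibody. Over all genes 40.3% were called, 25.2% higher and 15.0% lower. Whether a list departs from these shares was not tested.

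**Figure D4:**
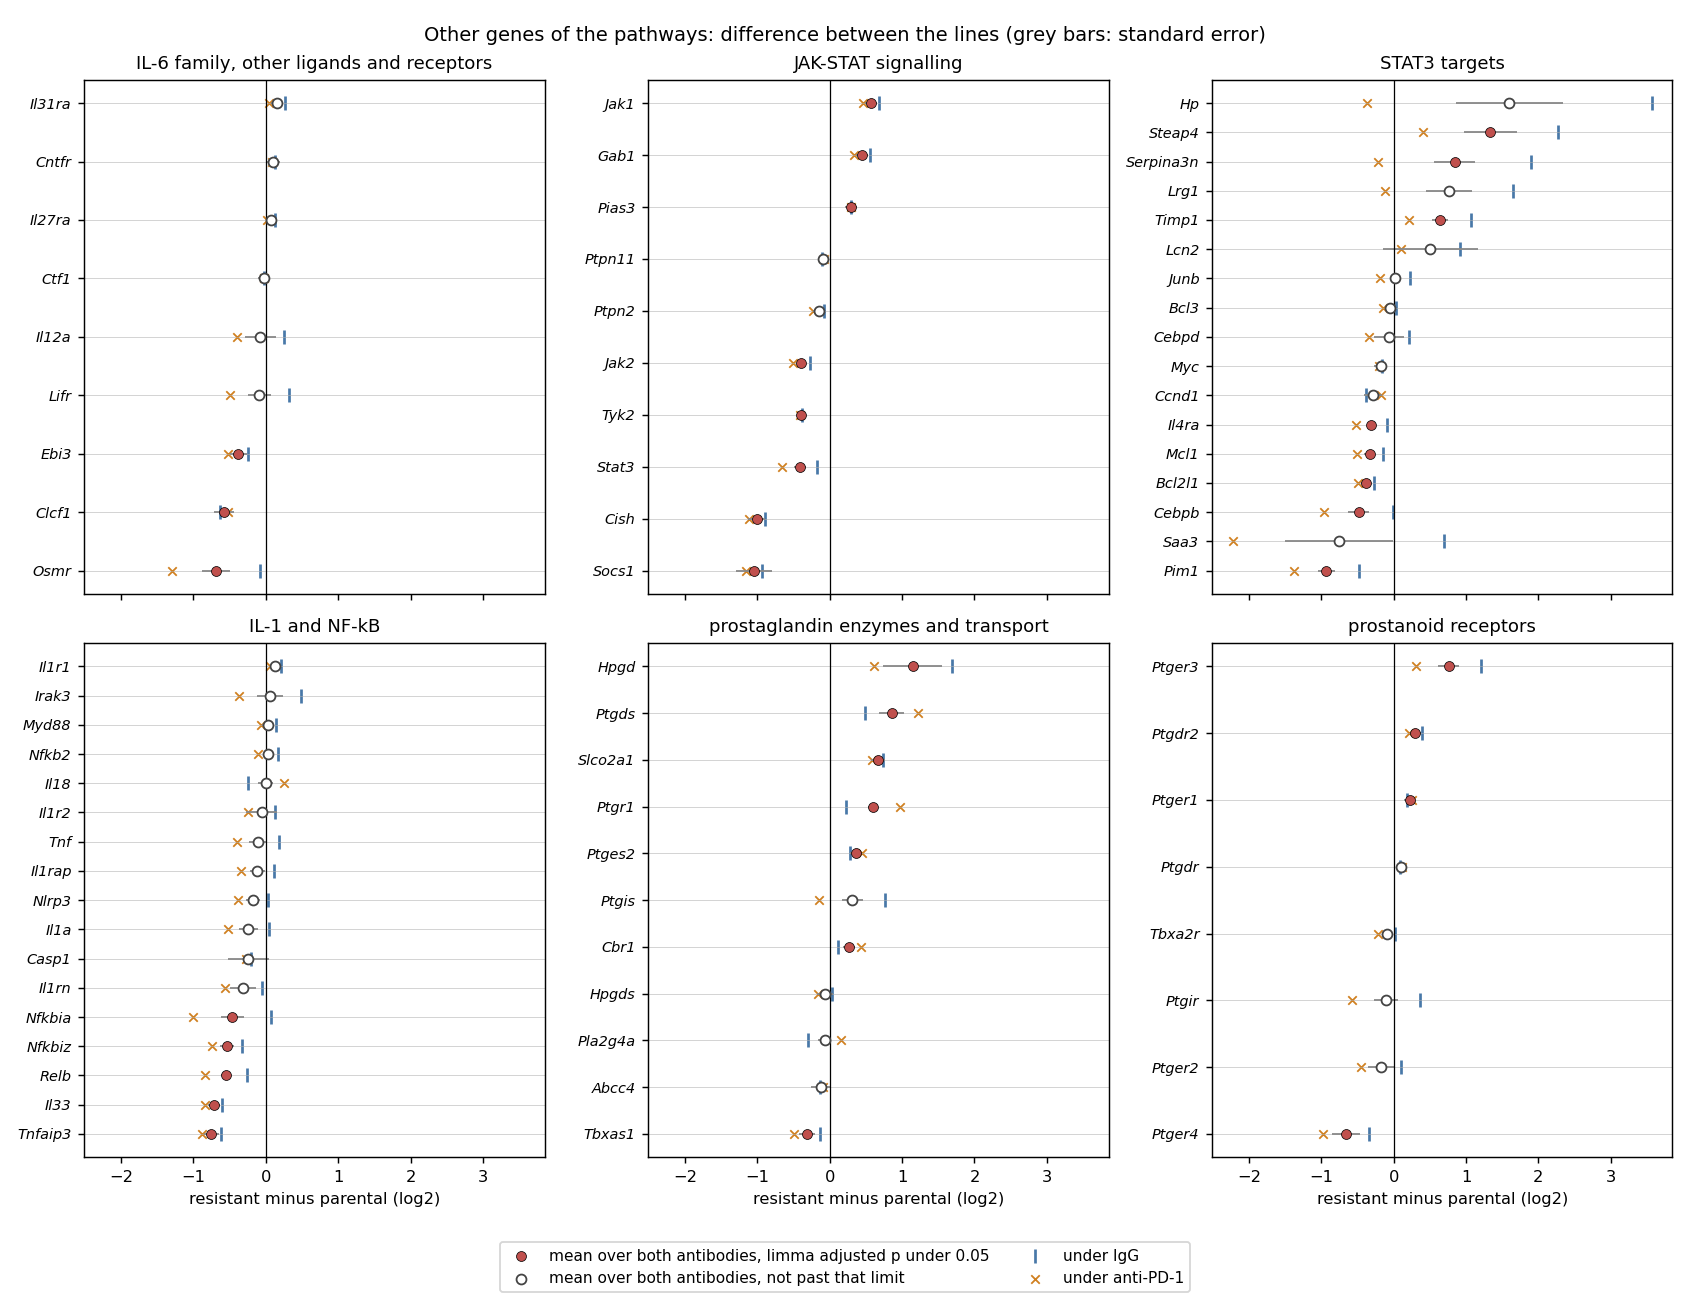
Difference in log2 level, resistant minus parental, for 72 other pathway genes in 6 lists (x axis). Circles are means over both antibodies with their standard error, filled where the adjusted p was under 0.05, bars and crosses are the values under IgG and under anti-PD-1. By their means over both antibodies, the called interleukin-1 and NF-kB genes all lie below 0, and 6 of the 7 called prostaglandin enzyme and transport genes lie above 0.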

How the data were processed

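Tumour RNA was measured on 12 Affymetrix whole-genome mouse arrays, 3 per group, and analysed from the deposited log2 expression values. The background correction, normalization and summary of probes behind these log2 values are not given in the sources used here. Precision is limited by having 3 arrays a group. Of 45101 probe sets, 64 were controls, 34945 had 1 gene, 932 several and 9160 none in the platform annotation. Of those with 1 gene, 34741 were matched to a RefSeq gene by gene number and took its symbol. The probe set with the highest mean stood for a gene. Genes above 3.32, the 25th percentile of all values, on at least 3 arrays were tested (15493 genes, 28634 probe sets), and all 20 probe sets of the set passed. Every column was matched to a sample.

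A model of the 4 groups was fitted across all genes with limma 3.58.1 (R 4.3.3, lmFit and eBayes) with Benjamini-Hochberg adjustment and an adjusted p threshold of 0.05. The median standard error was 0.117 between groups and 0.0828 between lines. The script was tested on simulated data. Figures used Python 3.11.15 and matplotlib 3.10.9.

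The members and lists were chosen with earlier results of these data known. The text names all members, up to 6 called pathway genes each way per tested comparison, the 4 largest parental differences each way, and the 5 genes most like Il6 and Ptgs2, passing over predicted genes. Other called pathway genes were named after their values were seen. Alternatives changed the dim filter, scaling, probe set rule, block, weights, arrays fitted, eBayes options and arrays left out.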

Additional observations from a re-analysis of the deposited data

Results flagged for a closer look

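For 4 genes of the set, every parental array given anti-PD-1 lay above the parental IgG mean and every resistant array given anti-PD-1 lay below the resistant IgG mean. The difference between the antibody effects (resistant minus parental) was -2.81 for Il6, -1.03 for Osm, -0.837 for Il6ra and -0.987 for Il6st. It was not tested, since it holds the comparison on which the set was chosen. Among all 15493 genes, 806 (5.2%) had this pattern.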

How the results depend on the processing

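Lif between the lines kept its direction and call under all 21 alternatives (adjusted p of 5.86e-07 to 3.57e-05), and no result changed sign past the threshold. The median parental difference of the 10 genes was 0.43 without parental IgG replicate 1 and anti-PD-1 replicate 3, and ran from 0.49 to 0.90 when single arrays were left out. The genes of the set called between the lines numbered 6 with array weights, beside 7862 of all 15493 genes (6236 in the main fit). They numbered 2 to 6 when single arrays were left out, beside 5273 to 6576 of all genes. The 6 arose without parental anti-PD-1 replicate 1 (6009 of all 15479 genes), where Il6, Il1b and Il6ra were gained, and the cause was not tested. Pathway genes called numbered 29 to 39 and probe sets of the set 7 to 11 over the same omissions. In resistant tumours 0 genes of the set were called under any alternative. With the mean of a gene's probe sets, the Ptgs2 line average was 0.33. The labels do not say that a replicate number marks a shared mouse, batch or day. Deviations of same-numbered arrays correlated from -0.185 to 0.583, with 11 of 18 pairs over 0.1, which falls short of every pair and was not taken as pairing, although most were positive. With replicate number as a block, 4 genes of the set were called between the lines, with Il6 and Il6ra gained and Ptges lost. Over all genes 6459 of 15493 were called under the block. Under the block 38 pathway genes were called between the lines, and 0 in resistant tumours. Fitting only the arrays of the groups compared gives no separate value between the lines, which use all 12.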
